A study of Rattus norvegicus with 25 samples.

Results

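The alimentary limb of rats after Roux-en-Y gastric bypass (RYGB) was compared with the jejunum of sham-operated rats over every gene ID of the deposited count table. The members are the 6 libraries whose titles begin with RYGB_AL (1-1, 2-3 and 15-29) or Sham_JEJU (8-15, 14-28 and 15-30), of 25 libraries in the series. RYGB_AL is labelled as alimentary limb after RYGB surgery and Sham_JEJU as jejunum after sham surgery. The same cohort holds 3 libraries of the common limb after RYGB (RYGB_CL) and 3 of sham ileum (Sham_IL), which entered the same statistical fit. Strain, age, diet and the time since surgery are not given for these rats in the sources used here, and neither is the layer of the gut wall that was taken. The descriptions of the RYGB libraries end in "Pos", which the labels do not explain. The series concerns what its title calls the glucotonic effect of bypass, with atypical PKC and the glucose transporter GLUT1. Its submitters class the RYGB tissue as glucotonic and the sham tissue as not, and drew on this and 4 other pairwise comparisons to look for drugs and targets.

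In RYGB a small stomach pouch is joined directly to a cut end of jejunum. That piece, the alimentary or Roux limb, then carries food without bile or pancreatic juice, which reach the food only where the biliopancreatic limb joins to form the common limb. Jejunal epithelium normally digests and absorbs most sugar, fat and peptide. In rats the Roux limb is known to thicken after the operation and to use more glucose, which is the background to asking how its RNA differs from that of a jejunum left in place.

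The IDs are Ensembl rat gene IDs, and neither the count table nor the reference tables used here pair any of them with a symbol. No gene list, marker of a cell type or sequence could therefore be attached to a value. The labelled tissue was not checked against marker genes, and the transcripts of GLUT1, atypical PKC, EGF receptor and its ligands were not analysed here. The results below describe how many IDs differed, by how much, in which libraries, and where the common limb differed from the alimentary limb. The 4 IDs of largest change are given library by library. In bulk tissue, a change in the share of a cell type and a change in RNA per cell cannot be told apart.

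Sequencing gave 34.2 M to 49.3 M counts (M, mega) per RYGB_AL library and 28.5 M to 49.3 M per Sham_JEJU library. Of 32883 IDs, 21243 had a count in at least 1 of the 6 libraries. Drawn down to an equal depth of 28514273 counts, RYGB_AL libraries held 18300 ± 164 IDs with a count and Sham_JEJU libraries 18062 ± 232 (mean ± SD, n = 3 each, exact two-sided permutation p = 0.3, where 0.1 is the smallest p that 3 against 3 can give). The 10 most abundant IDs of each library took 7.72% ± 0.984 of counts in RYGB_AL and 9.02% ± 1.26 in Sham_JEJU (SD, n = 3 each, exact two-sided permutation p = 0.3). With 3 libraries a group, neither test could have passed 0.05, so both differences are given as values only.

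Libraries of the alimentary limb resembled each other more than those of sham jejunum. CPM are counts relative to the library total, after that total was adjusted by a scaling factor of the library. Log2 CPM were correlated across IDs, which are not independent replicates. The range was r = 0.974 to 0.981 between RYGB_AL libraries and 0.962 to 0.968 between Sham_JEJU libraries. Between a RYGB_AL and a Sham_JEJU library it was 0.930 to 0.961. Between 1360 and 2014 of 16146 tested IDs lay more than 2-fold apart in a pair of RYGB_AL libraries, 1966 to 3032 in a pair of Sham_JEJU libraries and 2468 to 4744 across the groups. The biological coefficient of variation, the spread between libraries beyond counting error, was 0.253 in RYGB_AL, 0.335 in Sham_JEJU, 0.398 in RYGB_CL and 0.241 in Sham_IL. Sham_JEJU 15-30 stood farthest from its group, with 2257 IDs over 2-fold away from what the other two averaged, and RYGB_AL 15-29 nearest, with 902. The RYGB_CL libraries did not hold together as a group, as each correlated best with a library of another group. RYGB_CL 15-29 had r = 0.975 with Sham_JEJU 14-28 and at most 0.955 within RYGB_CL. RYGB_CL 2-3 had 0.971 with Sham_IL 14-28 and at most 0.954 within its group, and RYGB_CL 1-1 had 0.9553 with Sham_IL 15-30 and at most 0.9546 within.

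The alimentary limb differed from sham jejunum in many IDs. With an edgeR quasi-likelihood fit and p adjusted after Benjamini and Hochberg (threshold 0.05), 719 of the 16146 IDs rose in RYGB_AL (4.45%) and 518 fell (3.21%), 7.66% together. The rises were larger than the falls. The middle 50% of the risen IDs lay between 0.95 and 2.31 on the log2 scale, and that of the fallen IDs between -1.68 and -0.86, against -0.35 and 0.31 over all IDs tested. Changes above 8-fold were found for 103 risen and 22 fallen IDs, and changes above 16-fold for 50 and 10. At the other end, 203 risen and 190 fallen IDs had changed by less than 2-fold, and the smallest log2 change that passed was 0.46 in size among the risen and 0.48 among the fallen. Over all tested IDs the median log2 change was -0.01, a value that the scaling itself holds near 0. With upper-quartile scaling it was -0.05, with 681 IDs called higher and 615 lower.

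**Figure D1:**
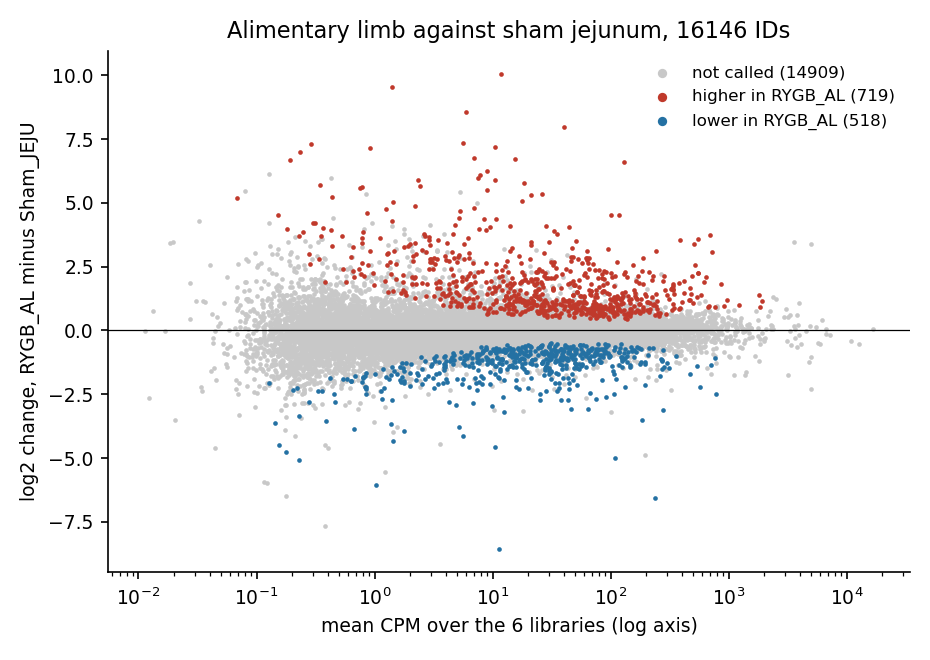
Log2 change between RYGB_AL and Sham_JEJU (vertical axis) against the mean CPM over the 6 libraries (horizontal log axis), 1 point per tested ID. The 719 IDs called higher reach farther from 0 than the 518 called lower, and few IDs under 1 CPM were called.

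The 3 RYGB_AL libraries all lay above the 3 Sham_JEJU libraries for 2171 tested IDs (13.4%) and all below for 2123 (13.1%). Separation without overlap was thus about as frequent in both directions, and most such IDs did not pass the test. Among the called IDs, 718 of the 719 risen and 514 of the 518 fallen had no overlap between the groups, and the IDs that overlapped were 1 and 4. These IDs were called on the same libraries, so this near absence of overlap was largely set by the call.

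The balance between rises and falls differed with abundance. At 100 CPM or more, 159 of 2370 tested IDs were higher in RYGB_AL (6.71%) and 64 were lower (2.70%). Between 10 and 100 CPM, 360 of 6822 were higher (5.28%) and 296 lower (4.34%). Between 1 and 10 CPM the counts were 158 and 128 of 4161 IDs, and under 1 CPM 42 and 30 of 2793. The median SE of the log2 change was 0.22 at 100 CPM or more and 0.68 under 1 CPM. The smallest change that passed under 1 CPM was 1.68 on the log2 scale, against 0.46 at 100 CPM or more.

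The risen IDs made up a larger part of the RNA of the alimentary limb. They held 7.29%, 8.21% and 8.03% of all counts in RYGB_AL 1-1, 2-3 and 15-29, and 3.48%, 2.94% and 3.00% in Sham_JEJU 8-15, 14-28 and 15-30. The fallen IDs held 1.46%, 1.22% and 1.34% in the same RYGB_AL libraries, and 3.02%, 3.48% and 3.28% in the same Sham_JEJU libraries. These shares describe IDs that were called on the same libraries and are no further test. Group means of CPM rest on scaled library totals, so their sums are not shares of counts. Summed over these means, the risen IDs gained 54477.3 CPM and the fallen IDs dropped by 20812.2 CPM. Few IDs carried much of this: 47 of the 719 made up 50% of the gain, and 40 of the 518 made up 50% of the loss. A difference above 100 CPM was found for 122 risen and 42 fallen IDs.

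In the distal libraries, the risen set held 4.08% to 4.15% of counts in RYGB_CL and 3.47% to 3.96% in Sham_IL. The fallen set held 2.61% to 2.87% in RYGB_CL and 3.02% to 3.62% in Sham_IL. The common limb libraries therefore lay on the alimentary side of sham ileum in both sets without overlap, by less than 1 percentage point at the means. The distal libraries entered the same fit and so bear on which IDs were called: leaving out 1 of them gave 981 to 1354 alimentary calls, and a fit without any of them shared 870 of the 1237. RYGB_CL carries the same title numbers as RYGB_AL, and whether these are the same rats is not stated.

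**Figure D2:**
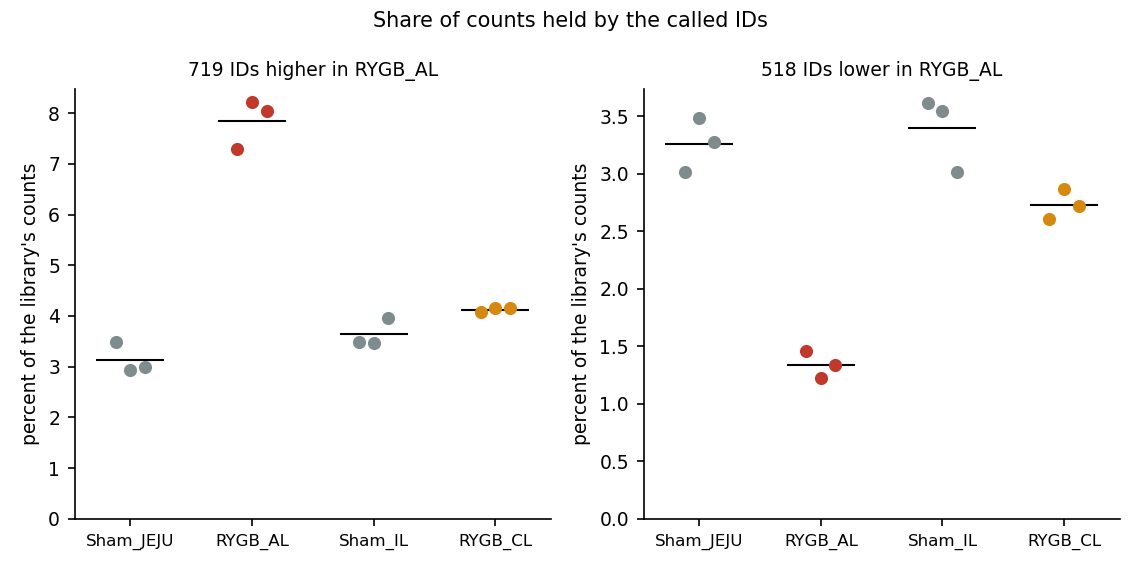
Percent of each library's counts (vertical axis) held by the 719 IDs called higher (left) and the 518 called lower (right) in RYGB_AL, 1 point per library with the group mean as a bar. RYGB_AL stands at 7.29% to 8.21% on the left and 1.22% to 1.46% on the right, and the common limb lies close to both sham groups.

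More IDs were without a count in sham jejunum alone than in the alimentary limb alone. Over the whole table, 90 IDs had counts in all 3 RYGB_AL libraries and none in Sham_JEJU, and 46 had the reverse. Most were at very low counts: 5 of the 90 and 0 of the 46 reached 10 counts in every library of the group that had them. Depth was not made equal for these counts. The shallowest library was Sham_JEJU 14-28 with 28.5 M counts, against 34.2 M for RYGB_AL 15-29. Those called by edgeR were 5 of the 90 and 0 of the 46. The low-count filter limits such calls: only 14 tested IDs had no count in any Sham_JEJU library, and 11 had none in any RYGB_AL library. The highest total over a group was 283 counts among the 90 and 76 among the 46.

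Among risen IDs with a mean of 5 CPM or more over the 6 libraries and no overlap between groups, 583 in number, ENSRNOG00000032626 had the largest fitted rise. It held 6.25, 39.8 and 24.4 CPM in RYGB_AL 1-1, 2-3 and 15-29, from 211, 1638 and 780 counts. The Sham_JEJU libraries had 0, 0 and 2 counts. The groups were far apart, with RYGB_AL 1-1 the lowest of its group. The ratio of summed counts, scaled by library size, was 1302 (95% exact counting interval 360 to 10756, log2 change 10.03, SE 1.24, adjusted p = 0.00112, edgeR). Here and below, the counting interval leaves out the spread between libraries. Both sham counts were in Sham_JEJU 15-30, and without that library the log2 change was 12.58, so its size rests on values near 0. In the distal gut it was near 0 as well: the RYGB_CL libraries 1-1, 2-3 and 15-29 had 0, 10 and 12 counts and the Sham_IL libraries 8-15, 14-28 and 15-30 had 3, 1 and 0. The order of group means was RYGB_AL, RYGB_CL, Sham_IL and Sham_JEJU, and the last 3 overlapped. The surgery effect differed between the limbs by 7.87 (log2, SE 2.56), which did not pass the test (adjusted p = 0.218, edgeR interaction contrast) but passed with DESeq2 (adjusted p = 0.0194).

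ENSRNOG00000002792 rose as well, with a wide spread. It stood at 0.770, 29.9 and 4.76 CPM in RYGB_AL 1-1, 2-3 and 15-29, from 26, 1231 and 152 counts. The Sham_JEJU libraries had 0, 0 and 3 counts. Library 2-3 carried most of the group's signal and 1-1 little, though each lay above every sham value. The ratio of summed counts was 465 (95% exact counting interval 159 to 2258, log2 change 8.55, SE 1.5, adjusted p = 0.00664, edgeR), and without RYGB_AL 2-3 the log2 change was 6.43. Without Sham_JEJU 15-30, which held all 3 sham counts, the log2 change was 11.59. RYGB_CL had 1, 1 and 2 counts and Sham_IL 0, 0 and 2, so Sham_JEJU, RYGB_CL and Sham_IL could not be told apart. The surgery effect differed between the limbs by 7.84 (log2, SE 3.98, adjusted p = 0.457, edgeR interaction contrast).

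Of the 413 fallen IDs chosen by the same limits, ENSRNOG00000051171 fell most. It held 25.4, 30.6 and 12.3 CPM in Sham_JEJU 8-15, 14-28 and 15-30. In RYGB_AL 1-1, 2-3 and 15-29 it had 5, 0 and 1 counts, at most 0.148 CPM. Sham_JEJU was 387-fold higher by summed counts (95% exact counting interval 177 to 1054, log2 change -8.55, SE 0.73, adjusted p = 0.000189, edgeR). Unlike both risen IDs, it was present in the distal gut. Sham_IL held 9.25, 8.78 and 10.6 CPM and RYGB_CL 1.44, 3.79 and 1.80 CPM, groups that did not overlap, although that change did not pass the test (log2 change -2.02, SE 0.49, adjusted p = 0.458, edgeR). The order of means was Sham_JEJU, Sham_IL, RYGB_CL and RYGB_AL, with no overlap between neighbours. The alimentary fall exceeded the distal one (interaction -6.53, SE 0.87, adjusted p = 0.0143, edgeR). That call was lost without Sham_IL 8-15 (-6.51, adjusted p = 0.0568, edgeR) and without RYGB_AL 15-29 (-6.28, adjusted p = 0.0609, edgeR).

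ENSRNOG00000028616 was the most abundant of these IDs. It stood at 217, 770 and 418 CPM in Sham_JEJU 8-15, 14-28 and 15-30, and at 3.53, 8.31 and 2.97 CPM in RYGB_AL 1-1, 2-3 and 15-29. Every sham value was more than 16-fold above every alimentary value. Sham_JEJU was 84.0-fold higher by summed counts (95% exact counting interval 77.2 to 91.5, log2 change -6.56, SE 0.70, adjusted p = 0.000553, edgeR). That interval is narrow because it leaves out the spread between libraries. RYGB_CL held 99.2, 168 and 173 CPM and Sham_IL 403, 400 and 127 CPM, which overlapped. Sham_JEJU and Sham_IL overlapped too, and RYGB_AL lay below all of them. The fall in the alimentary limb exceeded that in the common limb (interaction -5.48, SE 0.83, adjusted p = 0.0226, edgeR). It was not called without Sham_IL 8-15 (adjusted p = 0.0618), RYGB_AL 15-29 (0.0785) or Sham_JEJU 14-28 (0.0508, all edgeR), with values of -5.71, -5.22 and -4.95.

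**Figure D3:**
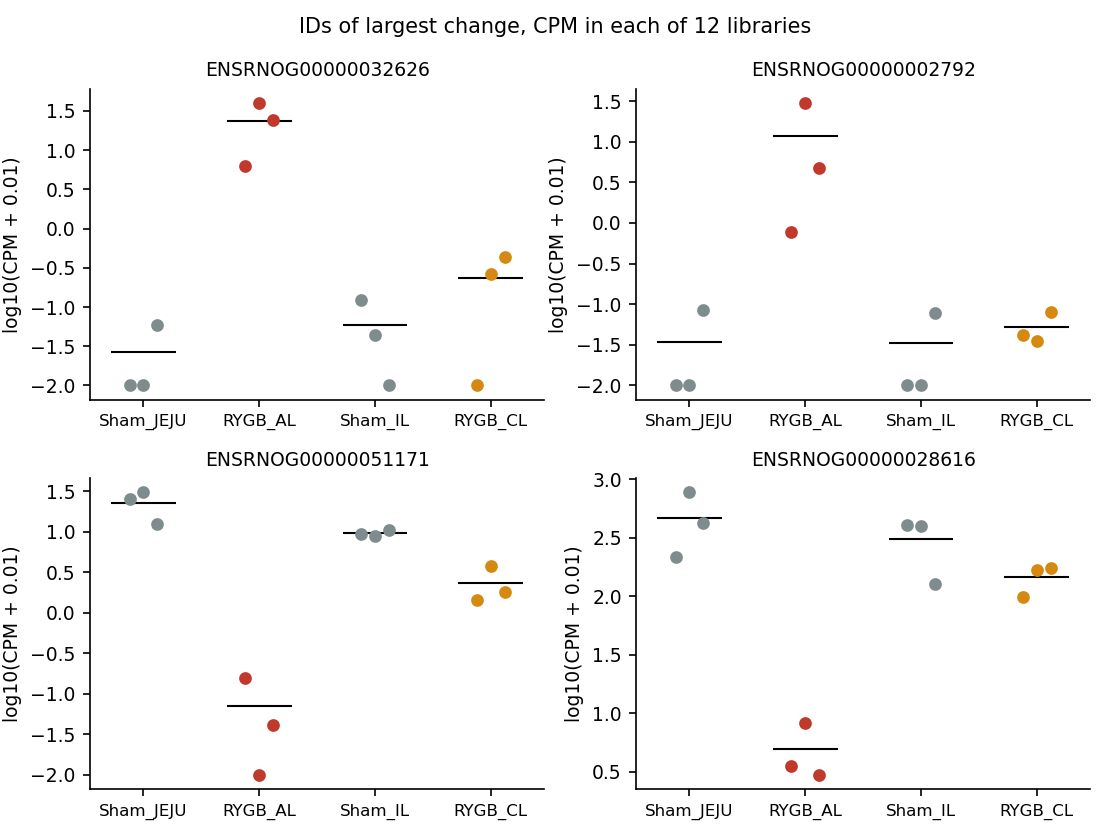
log10(CPM + 0.01) of the 4 IDs of largest change in each library, 3 points per group with the group mean as a bar. Both risen IDs are near 0 CPM outside RYGB_AL, while the fallen IDs are lowest in RYGB_AL and hold 1.44 to 173 CPM in RYGB_CL.

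The libraries of the alimentary limb did not contribute equally. RYGB_AL 1-1 was the lowest of its group for 463 of the 719 risen IDs (64.4%) and the highest for 319 of the 518 fallen IDs, so it lay nearest to sham in both directions. RYGB_AL 2-3 was the highest for 387 risen IDs and the lowest for 269 fallen IDs. Against the mean of Sham_JEJU, the median log2 difference of the risen IDs was 1.28 in 1-1, 1.56 in 2-3 and 1.48 in 15-29, and that of the fallen IDs -0.97, -1.24 and -1.16. These IDs were called on the same libraries, so that each library lies on the called side was set by the choice, and only the differences between the libraries are described here.

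Calls were next made without 1 library, and the values of that library were then read for the called IDs that had also been tested with all libraries. Without RYGB_AL 2-3, 337 such IDs were called higher, and for 334 of them (99.1%) the omitted library lay above all 3 Sham_JEJU libraries, against 31.8% of all tested IDs. Without RYGB_AL 15-29 it was 351 of 352 (99.7%, against 27.4%), and without RYGB_AL 1-1 it was 659 of 692 (95.2%, against 24.2%). For IDs called lower, the omitted library lay below all Sham_JEJU libraries for 164 of 165 (2-3), 130 of 132 (15-29) and 422 of 465 (1-1). Over all tested IDs these shares were 29.7%, 27.5% and 25.2%. Of the sham libraries, Sham_JEJU 15-30 followed the others least: it lay below all RYGB_AL libraries for 580 of 667 IDs called higher without it (87.0%) and above them for 440 of 537 called lower (81.9%). For Sham_JEJU 15-30 the shares over all tested IDs were 31.7% and 31.1%. The size held in some libraries and shrank in others. IDs called higher without RYGB_AL 15-29 had a median of 1.82 in the libraries kept and 1.87 in 15-29, while those called without RYGB_AL 1-1 had 1.53 in the libraries kept and 1.15 in 1-1. In each of these comparisons the opposite group is the same in the call and in the reading, so a high share is partly set by the call. The shares over all tested IDs carry no such choice and are not a matched expectation.

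**Figure D4:**
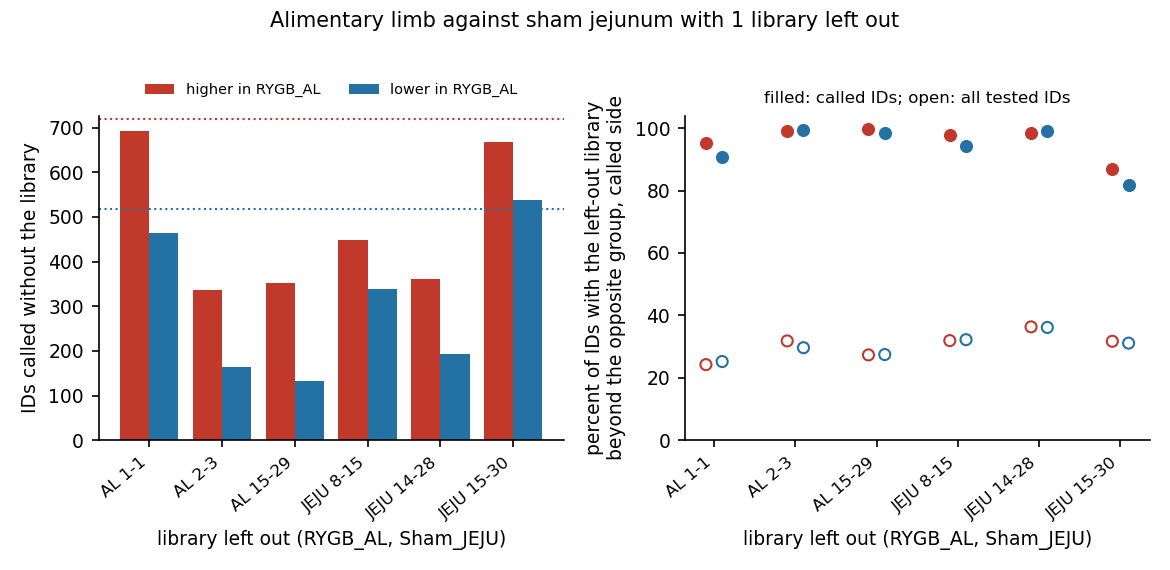
Left, IDs called higher or lower when 1 library was left out, among IDs also tested with all libraries (bars), with the counts from all libraries as dotted lines. Right, percent of called IDs (filled) and of all tested IDs (open) for which the omitted library lay beyond the whole opposite group on the called side; the filled points run from 81.9% to 99.7% and the open points from 24.2% to 36.3%.

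How many IDs were called depended on single libraries. There were 484 calls without RYGB_AL 15-29, 503 without RYGB_AL 2-3, 557 without Sham_JEJU 14-28 and 792 without Sham_JEJU 8-15, but 1168 without RYGB_AL 1-1 and 1212 without Sham_JEJU 15-30 (edgeR). The balance of directions moved with it, from 55.4% of calls higher without Sham_JEJU 15-30 to 72.7% without RYGB_AL 15-29, against 58.1% with all libraries. A stable set of 281 risen (1.74% of tested) and 105 fallen IDs (0.65%) was called with all libraries and without each of the 6 in turn. It is a stricter choice on the same data, which favours larger changes, and no distal library was left out for it. The risen IDs of this set went from a median of 15.1 CPM in Sham_JEJU to 64.0 CPM in RYGB_AL, with log2 changes of 0.71 to 10.03 and a median of 1.95. The fallen ones went from a median of 43.2 CPM to 15.8 CPM, with log2 changes of -8.55 to -0.66 and a median of -1.52. The 4 IDs described above belong to it, and 138 of its risen and 28 of its fallen IDs changed more than 4-fold.

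The same IDs were then read in the common limb, which lies beyond the junction with the biliopancreatic limb. Its own comparison with sham ileum called no ID (0 of 16146, 0%) by edgeR, with 1268 IDs at an unadjusted p under 0.05 and 93 calls by DESeq2. Without RYGB_CL 2-3, edgeR called 56 IDs there, and without RYGB_CL 15-29 it called 1. For the 719 alimentary-risen IDs the median log2 change was 1.44 in the alimentary and 0.20 in the common limb, and for the 518 fallen IDs -1.15 and -0.17. Over all tested IDs these medians were -0.01 and 0.05. An ID-by-ID test of the difference between both surgery effects called 98 IDs (0.607%), among them 81 of the 719 risen (11.3%) and 15 of the 518 fallen (2.90%). In each of these 96 the alimentary change was the larger one in its direction. Because the risen and fallen IDs were called on the alimentary contrast, which is part of the difference, their medians and shares are a description. That choice favours a larger median change in the alimentary than in the common limb. The median SE of the difference was 0.39 among the risen IDs and the median difference 1.23, and most did not pass after adjustment over all IDs. For 124 of the 719 risen and 98 of the 518 fallen IDs, the 95% interval of the difference (normal quantile times SE) held 0. Over all tested IDs it held 0 for 13543 of 16146. These intervals are not adjusted over IDs, and the choice of IDs by the alimentary call favours intervals without 0.

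**Figure D5:**
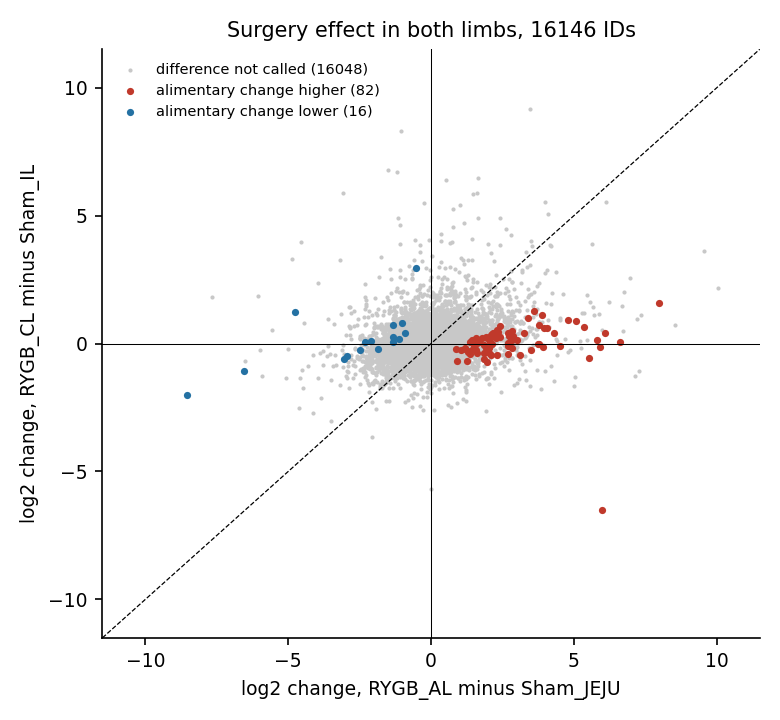
Log2 change in the common limb (RYGB_CL minus Sham_IL, vertical axis) against that in the alimentary limb (RYGB_AL minus Sham_JEJU, horizontal axis), 1 point per tested ID, with equality as a dashed line. The 82 IDs with a higher and the 16 with a lower alimentary change have median common-limb changes of 0.05 and 0.07. These IDs were called on the difference itself, so a gap between the limbs was set by the choice.

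The count of IDs whose surgery effect differed between the limbs was less stable than the alimentary calls themselves. Such a call compares changes from sham, not RNA levels in both limbs. Omitting a sham ileum library left 8 calls (8-15), 36 (14-28) or 12 (15-30), and omitting a sham jejunum library left 50 (8-15), 15 (14-28) or 46 (15-30), by the edgeR interaction contrast. Omitting RYGB_AL 2-3 left 19, RYGB_AL 15-29 left 12 and RYGB_CL 1-1 left 45. The count rose to 103 without RYGB_AL 1-1 and to 127 without RYGB_CL 2-3. Without RYGB_CL 15-29, which correlated best with a sham jejunum library, it was 86, of which 64 were among the 98. Only 8 IDs were called with all 12 libraries and without each of them, whereas the stable alimentary set rests on 6 omissions. None of the 4 IDs described above is among these 8. In all 8 the change from sham was higher in the alimentary limb. Log2 changes were 1.87 to 7.96 there (median 3.63), with a median of -0.13 in the common limb. These 8 IDs were called on the difference itself, so a gap between the limbs was set by the choice. In the alimentary limb, 7 of the 8 rose more than 4-fold. Their median level was 7.10 CPM in Sham_JEJU and 88.6 CPM in RYGB_AL.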

How the data were processed

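RNA was extracted by column and made into stranded, ribosomal-RNA-depleted libraries, per the labels' protocols. FastQC, STAR and rat build rn6 are named in the submitters' processing notes; no source used here gives the counter, annotation release or strand setting, so overlapping or near-identical genes may share counts. The authors deposited whole-number counts per Ensembl ID, not normalized. Column names lacked the last character of a sample's description and were matched on the rest. Reference tables matched 0 of 32883 IDs to a symbol, so the planned gene lists, cell type markers and parts of the naming rule that need symbols could not be applied. What remained of the rule named 2 risen and 2 fallen IDs: the largest log2 changes among called IDs (adjusted p threshold 0.05) whose groups did not overlap and whose 6 libraries averaged 5 CPM or more. Members and lists were chosen with earlier results of these data known.

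The 12 libraries of the cohort, in 4 groups of 3, entered 1 model in edgeR 4.0.16 under R 4.3.3: low-count filter filterByExpr, using the groups (minimum count 10, total 15), TMM scaling, robust quasi-likelihood fit, contrasts RYGB_AL minus Sham_JEJU, RYGB_CL minus Sham_IL and their difference, Benjamini-Hochberg adjustment over 16146 IDs. The code was run on counts simulated with the spread of this fit, which does not test how well the model holds for these libraries. CPM use the TMM-scaled libraries, and log2 CPM a prior count of 2. Each SE was derived as log2 change over the square root of F. Alternatives were DESeq2 1.42.0, its size factors, upper-quartile scaling, no filter, only the groups compared, a minimum fold of 1.5, each library left out and the title number as a block. Replicates differed beyond sampling noise (chi-square per degree of freedom at least 84.9 within a group). Nothing in the labels says that libraries came from separate rats, so p-values then measure only spread among these samples, which may be technical. Counting intervals cover counting error only.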

Additional observations from a re-analysis of the deposited data

Results flagged for a closer look

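The change after surgery was not equal in both limbs for 98 of 16146 IDs by the interaction contrast (edgeR, adjusted p under 0.05). Of the IDs described by library, the change from sham of ENSRNOG00000051171 differed by -6.53 (log2, alimentary minus common limb, SE 0.87, adjusted p = 0.0143, edgeR). That of ENSRNOG00000028616 differed by -5.48 (SE 0.83, adjusted p = 0.0226, edgeR). Both calls were lost without Sham_IL 8-15 (adjusted p = 0.0568 and 0.0618, edgeR) and without RYGB_AL 15-29 (0.0609 and 0.0785), and that of ENSRNOG00000028616 also without Sham_JEJU 14-28 (0.0508). Without Sham_IL 8-15 the count fell to 8 IDs, all with a higher change from sham in the alimentary limb. Both named IDs were lower in all 3 RYGB_AL libraries than in any library of the other groups. Groups of 3 libraries are too small to look for single outlying samples.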

How the results depend on the processing

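For RYGB_AL against Sham_JEJU, DESeq2 called 2029 IDs (1091 higher and 938 lower), which held 1235 of the 1237 edgeR calls, and a minimum fold of 1.5 left 336 (255 and 81). Leaving out each of the 12 libraries gave 484 to 1354 calls, 338 to 815 of them higher and 132 to 558 lower. Counts under DESeq2 size factors (1236), upper-quartile scaling (1296), no filter (1091) and a fit of only these groups (1050) lay within 1.5 times the reported count. The last shared 870 IDs with the 1237. For RYGB_AL against Sham_JEJU, all 4 IDs described by library passed in the same direction under all 18 alternatives, at an adjusted p of at most 0.0373 (edgeR, ENSRNOG00000002792 without Sham_JEJU 14-28). These IDs were chosen for the largest changes in the same libraries, so that they passed was largely set by the choice. For RYGB_CL against Sham_IL, DESeq2 called 93 IDs, no filter gave 1, and leaving out a library gave 0 to 56. The difference in surgery effect between limbs was called for 568 IDs by DESeq2 and for 8 to 127 with a library left out. Of the interaction calls described by ID, that of ENSRNOG00000051171 was lost under 2 and that of ENSRNOG00000028616 under 3 of 17 alternatives, each with a library left out, and ENSRNOG00000032626 passed with DESeq2. The cause of these shifts was not tested.

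No paired analysis was possible for RYGB_AL against Sham_JEJU because no full title number occurs in both groups and only 1 leading number does, the 15 of RYGB_AL 15-29 and Sham_JEJU 15-30, which the labels do not explain. For the difference in surgery effect between limbs, the title number as a replicate block gave 69 calls, 49 of them among the 98. Deviations from the group means correlated at -0.048 to 0.275 between limbs of one number and at 0.030 to 0.087 between sham segments. Between unlike numbers they correlated at -0.290 to 0.155 and -0.129 to 0.086. Of the RYGB numbers, 2 of 3 correlated best with themselves, and of the sham numbers 1 of 3. With 3 libraries a group, these values cannot show whether the numbers pair the samples. The main fit used no pairing, so its 98 calls ignore any that exists.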
